A study of Mus musculus with 14 samples.

Results

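The goblet cell and mucin genes are 35 genes named for their part in making intestinal mucus, of 55889 genes counted without dextran sulfate sodium (DSS) and 54721 counted after it. They were taken by gene symbol, not by any measured value, and fall into 5 roles: 10 secreted mucus and granule proteins, 7 processing, granule and transport proteins, 4 transcription factors, 10 O-glycosylation enzymes and 4 transmembrane mucins. RNA sequencing was performed on intestinal tissue of C57BL/6N mice to ask which genes differed between wild-type (WT) mice and *MiR-29ab1-/-* mice (KO), which lack the germline cluster of miR-29a and miR-29b-1 in every cell, before and during experimental colitis. The first experiment held 4 WT and 4 KO mice that received no DSS (WT 1 to WT 4 and KO 1 to KO 4), and the second held 3 WT and 3 KO mice given 3.5% DSS, an agent that injures the colonic epithelium, for 3 days (WT DSS 1 to 3 and KO DSS 1 to 3). All mice were 8 to 12 weeks old, and WT littermates served as controls. The 2 experiments were deposited in separate tables with different gene annotations, so DSS and experiment cannot be told apart. Levels are given as CPM, reads of a gene in proportion to the library total after TMM scaling, a correction for differences in library composition, and differences between genotypes are given as log2 of KO over WT.

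Goblet cells are the secretory cells of the intestinal epithelium that store gel-forming mucins in granules and release them to form the mucus layer between the tissue and the bacteria of the lumen. The gel-forming mucin MUC2 is folded in the endoplasmic reticulum with the help of AGR2, decorated with O-linked glycans in the Golgi by a chain of transferases, packed with trefoil peptides, lectins and proteases, and secreted. SPDEF and FOXA3 drive the terminal programme of these cells. MicroRNAs of the miR-29 family pair with messenger RNAs through their seed, the second to eighth bases, and lower the level or translation of those transcripts.

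The mature microRNAs are shown because the deletion removes some members of the family and leaves others with the same seed. RefSeq (GRCm38.p6) placed the deleted copies on the minus strand at chr6:31062673-31062694 (miR-29a-3p) and chr6:31063025-31063047 (miR-29b-3p), and the kept copies on the plus strand at chr1:195037091-195037113 (miR-29b-3p, identical in sequence) and chr1:195037600-195037621 (miR-29c-3p). Capitals mark the seed.
miR-29a-3p: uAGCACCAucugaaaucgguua
miR-29b-3p: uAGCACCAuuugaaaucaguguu
miR-29c-3p: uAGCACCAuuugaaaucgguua
The seed was identical in all of them, so the KO mice retained genes for microRNAs with this seed.

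The annotated 3′ untranslated regions of the members were searched on the transcript strand for TGGTGCT, the complement of the seed, and for TGGTGCTA, the same letters followed by an A. A match was found in 3 of the 34 members tested (8.82%), against 1959 of 12812 tested genes with an annotated region (15.3%), whose regions had a median of 1153 bases against 440.5 in the members. The 3 matches are shown 5′ to 3′ with their flanks from GRCm38, with the matching letters in capitals.
*Spdef*, chr17:27714510-27714539, minus strand: catatctggcaTGGTGCTAagagatgtctg
*B3gnt3*, chr8:71690756-71690783, minus strand: cctggtgtgttTGGTGCTtcaggagtgc
*Galnt4*, chr10:99111638-99111666, plus strand: tttaacgtgggTGGTGCTgagtagctggt
The log2 differences of these 3 genes between KO and WT mice were -0.05, 0.07 and -0.03 without DSS and -0.20, 0.09 and 0.08 after DSS, and the 95% intervals of all 6 values included 0. A match is a description of letters and does not show binding.

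The libraries held 14231157 to 18185020 counted reads without DSS, where every WT library was larger than every KO library, and 20076719 to 23153149 after DSS; 3 reads corresponded to 0.165 to 0.211 and 0.130 to 0.149 CPM. The *Mir29a* and *Mir29b-1* hairpins had 0 or 1 reads in every mouse and so could not check the genotypes, but *Lncpint*, the long non-coding RNA gene annotated beside the deleted cluster, separated them, with 7 to 23 reads in WT and 1386 to 2889 in KO mice without DSS and 6 to 14 against 706 to 1144 after DSS. The sample labels name small intestinal crypts, whereas the series text names colon. The colonic genes *Car1* (928 to 5163 CPM) and *Hoxd13* (15.3 to 54.2 CPM) were present in all 14 mice, and *Apoa4*, a small-intestinal apolipoprotein, had at most 2 reads. The summed level of the 7 colon identity genes was 1548 to 5913 CPM, and that of the 13 small-intestinal genes was 343 to 610 CPM, of which *Fabp2* made 144 to 403 CPM. The defining goblet cell markers were *Muc2* and *Tff3*, and both were detected in every mouse. The members together took 3.79% to 9.55% of the reads without DSS and 2.19% to 5.16% after DSS.

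Per kilobase of gene model, the members without DSS ran from 0.0654 CPM per kb (*St6galnac1*) to 11906 CPM per kb. Without DSS *Mptx1*, a mucosal pentraxin, stood first, followed by *Clca1*, a secreted metalloprotease of the mucus (6640 CPM per kb), *Ang4*, an antimicrobial ribonuclease (4830 CPM per kb), *Spink4*, a protease inhibitor (3641 CPM per kb) and *Retnlb*, a resistin-like antibacterial protein (2768 CPM per kb). By reads alone *Clca1* held rank 2 and *Fcgbp*, an IgG Fc-binding protein of mucus, rank 3 among all genes. After DSS *Mptx1* was again first at 4247 CPM per kb, then *Zg16*, a lectin that binds bacterial walls (2651 CPM per kb), *Tff3*, a trefoil peptide (2204 CPM per kb), and *Clca1* (2040 CPM per kb). *Clca1* alone gave 27.0% to 42.1% of the members' reads in each mouse without DSS and 9.7% to 26.9% after DSS. The secreted products also varied most between mice, by the median coefficient of variation. It was 35.4% in WT and 21.3% in KO mice without DSS and 23.5% and 40.9% after DSS. The O-glycosylation enzymes had 13.95% and 14.7% without DSS and 9.6% and 10.7% after DSS. The transmembrane mucins came close, at 30.4% in WT and 20.9% in KO mice without DSS and 21.9% in WT mice after DSS. They had 13.7% in KO mice after DSS.

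**Figure D1:**
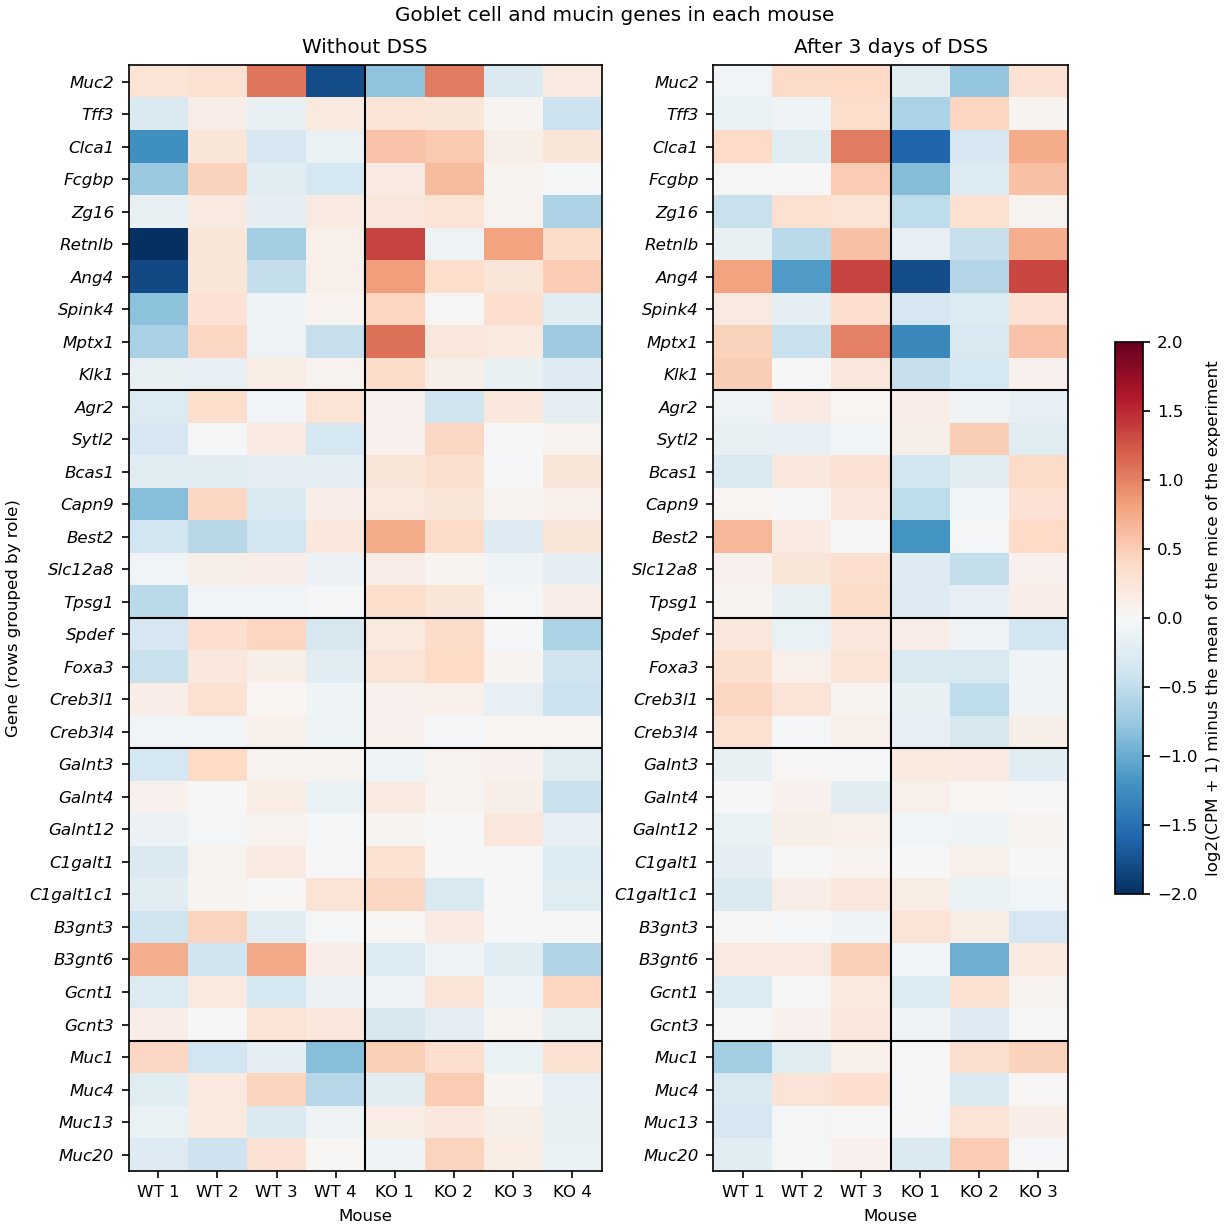
Level of 34 of the members in each mouse, as log2(CPM + 1) minus the mean of the mice of the same experiment, with red above and blue below that mean, genes in rows grouped by role and mice in columns. *St6galnac1*, which was near 0 reads, is left out. WT 1 and KO DSS 1 are low across most secreted products, and KO 1 is high.

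*Muc2* (chr7:141690340-141754693) stood apart from the other members between the tables. In the experiment without DSS it had 396 to 2961 reads per mouse, and in the DSS experiment 66937 to 189668. On a scale common to all 14 mice its mean was 83.3 CPM without DSS and 7125 CPM after DSS, an 85.6-fold difference, while the log2 ratios of the other members with at least 10 CPM in either table lay between -2.28 and 1.26. Of 4247 genes with at least 50 CPM after DSS, 43 were at least 32-fold lower without DSS, and *Muc2* was the only member among them. The 43 also held genes that most cells use, such as *Arf4*, a GTPase of vesicle traffic, with 0 to 1 reads in every mouse without DSS and 5651 to 8012 after DSS, and *Ppp1ca*, a phosphatase subunit, with 66 to 132 and 5598 to 6917 reads. These 2 genes were picked after the values were seen. Both tables gave *Muc2* the same coordinates and length, and the cause of the low counts was not tested. *Muc2* values without DSS are therefore given below with that limit, and its genotype difference was measured at 396 to 2961 reads.

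**Figure D2:**
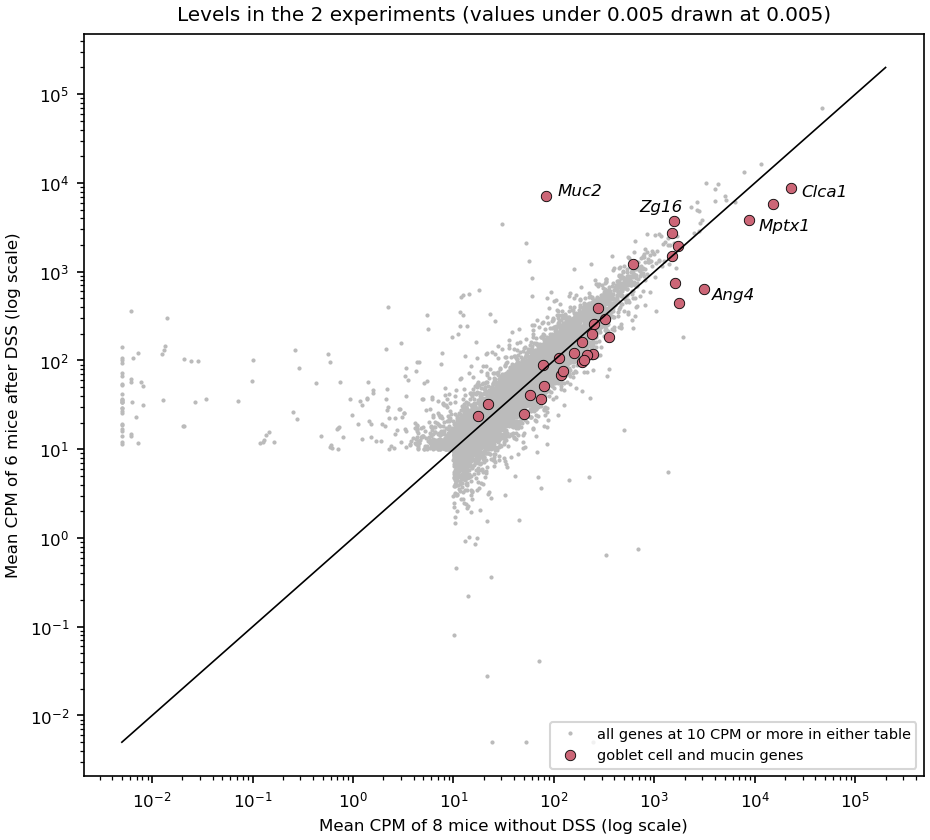
Mean CPM of each gene without DSS (8 mice, x axis, log scale) and after DSS (6 mice, y axis, log scale), on a scale common to all 14 mice, with 33 members at 10 CPM or more in either table in red, other such genes in grey and the line of equal level in black. *Muc2* lies far above the line, at 83.3 CPM without DSS and 7125 CPM after DSS, as does a scatter of grey genes, many of them near 0 without DSS.

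The first comparison asked whether the goblet cell programme differed between genotypes before injury. Without DSS the KO mice had higher *Clca1*, *Bcas1*, *Best2* and *Tpsg1* and lower *B3gnt6* and *Gcnt3*, at an unadjusted p under 0.05, and no member passed the threshold after adjustment. By edgeR's quasi-likelihood test, 4 of the 34 members tested were higher and 2 were lower at the unadjusted threshold, against 2.09% and 1.58% of the 15441 genes tested. After Benjamini-Hochberg adjustment 0 members passed, against 0.0194% of the genes tested, and *Bcas1* had the lowest adjusted p of the members, 0.819. DESeq2 called 1 member, *Bcas1*, at a log2 difference of 0.40 and an adjusted p of 0.0276. The share of all genes that DESeq2 called is not given here, so that call has no background beside it. The median log2 difference of the members was 0.07, beside -0.00 over all genes tested, with 24 members above 0 and 10 below. Of the 15441 genes tested, 7651 were above 0 and 7790 below. All KO mice exceeded all WT mice for 2 members, *Bcas1* and *Tpsg1* (1.11% of all genes), and lay below them for 0 members (0.92% of all genes). The count of higher members rested on single mice, with 1 without KO 1, 2 without KO 2 and 8 without WT 2. That of lower members was 1 without KO 1, KO 4 or WT 1 and 0 without WT 3. The shares of all genes called in these refits are not given here. In RNA of whole tissue or crypts, more or fewer goblet cells and more or less RNA per goblet cell cannot be told apart.

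**Figure D3:**
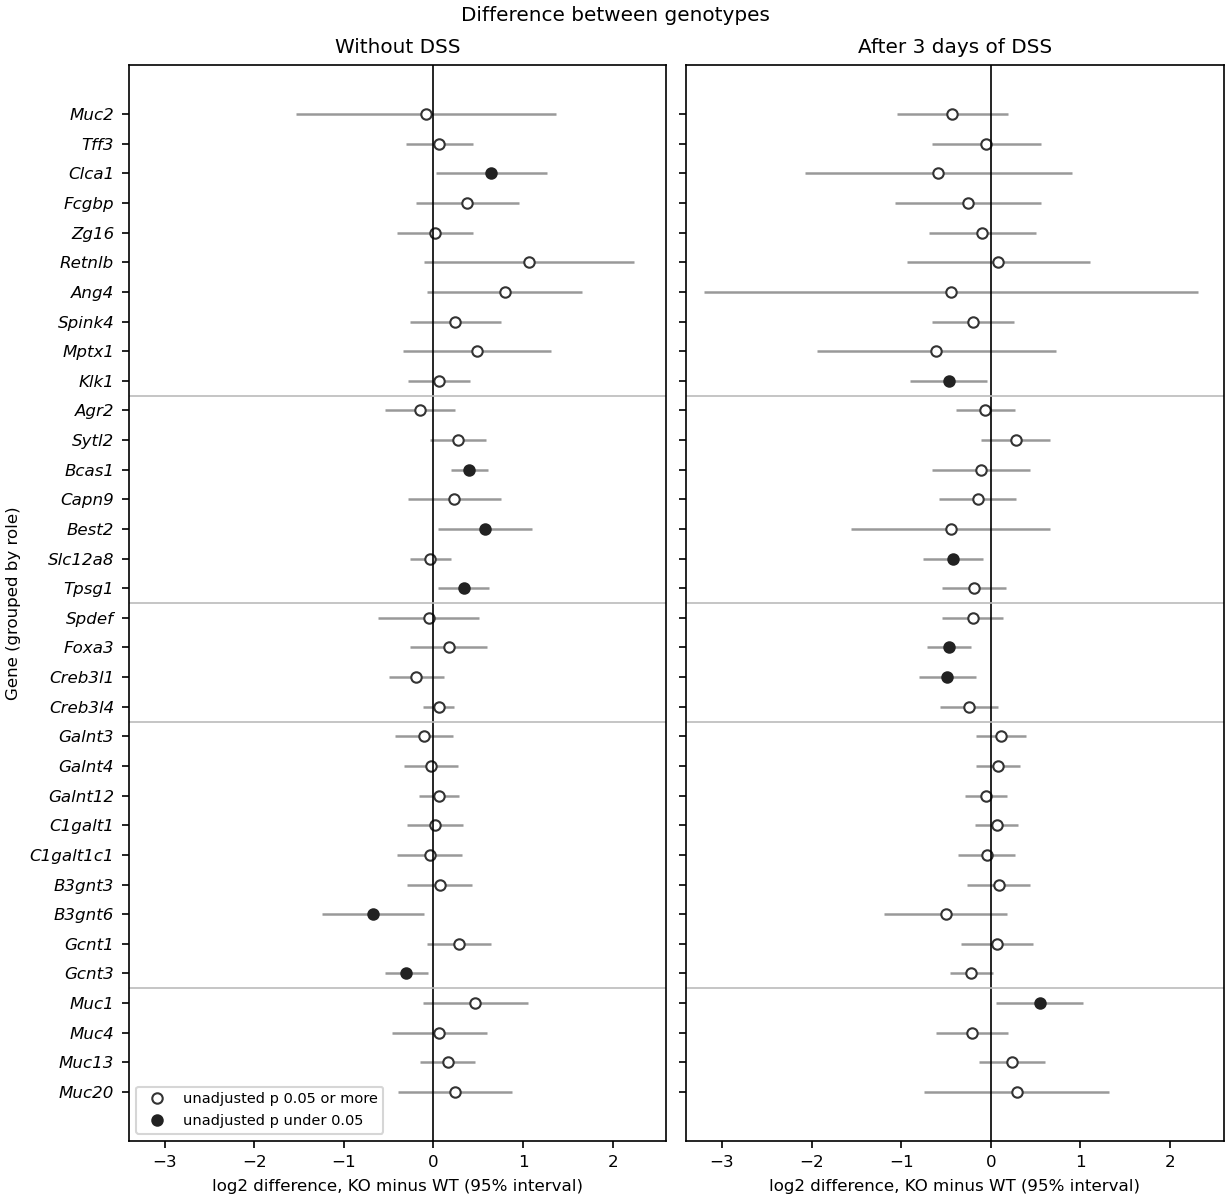
Log2 difference between KO and WT mice (x axis) of each tested member, grouped by role, without DSS (left, 4 against 4 mice) and after 3 days of DSS (right, 3 against 3), with points for the edgeR estimate and bars for its 95% interval. Filled points mark an unadjusted p under 0.05: 6 members without DSS and 5 after DSS, with none in common.

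Among the secreted proteins, 9 of 10 had a log2 difference above 0 and 1 below, with a median of 0.31, and 1 passed the unadjusted threshold. *Clca1* (chr3:145003817-145032776) measured 10054, 27924, 18681 and 21628 CPM in WT 1 to WT 4 and 35164, 33908, 25492 and 27783 CPM in KO 1 to KO 4. WT 1 was the lowest mouse and KO 1 the highest, and the groups overlapped, since WT 2 exceeded KO 3 and KO 4. The means were 19572 ± 7424 and 30587 ± 4683 CPM (SD, n = 4 each; log2 difference 0.64, 95% interval 0.03 to 1.26, edgeR unadjusted p 0.0424), a 1.56-fold difference. The call ended when KO 1, KO 2, WT 1, WT 3 or WT 4 was left out (unadjusted p 0.0615 to 0.0886) or all 14 mice shared a model (p 0.161).

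*Fcgbp* (chr7:28071236-28120862) followed the same mice less closely, with 9497, 21954, 13812 and 12459 CPM in WT and 17872, 24726, 16624 and 15678 CPM in KO mice, which overlapped (log2 difference 0.38, 95% interval -0.20 to 0.95, edgeR unadjusted p 0.178). Without WT 2, its highest WT mouse, the difference was 0.65 with an unadjusted p of 0.0156. *Retnlb* measured 381, 1904, 985 and 1715 CPM in WT and 4074, 1498, 2787 and 2072 CPM in KO mice (log2 difference 1.07, 95% interval -0.11 to 2.24, edgeR unadjusted p 0.0698). *Ang4* measured 881, 3638, 2198 and 3296 CPM in WT and 5454, 3921, 3621 and 4384 CPM in KO mice (log2 difference 0.80, 95% interval -0.07 to 1.66, edgeR unadjusted p 0.0669). For *Ang4*, WT 2 alone exceeded the lowest KO mouse, and for *Retnlb*, WT 2 and WT 4 did. Both passed the unadjusted threshold with DESeq2 (p 0.036 for *Retnlb* and 0.0374 for *Ang4*), and with limma or epithelial scaling. By edgeR they passed without WT 2 (p 0.0469 and 0.0322), *Retnlb* also without KO 2 (p 0.0477) and *Ang4* without WT 1 (p 0.0379). *Mptx1* reached 5599, 11626, 8154 and 6323 CPM in WT and 18834, 10276, 10011 and 5279 CPM in KO mice, where KO 1 was highest and KO 4 lowest of all 8 (log2 difference 0.49, 95% interval -0.34 to 1.31, edgeR unadjusted p 0.219). Without KO 4 its difference was 0.72 with an edgeR unadjusted p of 0.0413. WT 2 was the highest WT mouse for *Fcgbp*, *Retnlb* and *Ang4*. The lowest KO mouse was KO 2 for *Retnlb* and KO 4 for *Mptx1*. Leaving out such a mouse widens the difference by construction, so the p-values without it are not support for one. *Mptx2*, the paralog of *Mptx1*, ranged from 1.65 to 1249 CPM over the 8 mice. It was 751 CPM in WT 4, 1249 CPM in KO 2 and 809 CPM in KO 4, and 18.8 CPM or less in the others. *Itln1*, counted below among Paneth cell genes, was highest in the same mice, at 1081, 1302 and 1196 CPM. It was 331 CPM or less in the others. The part of this split between mice in the members' differences was not tested. *Ang4*, *Retnlb*, *Mptx1* and the kallikrein *Klk1* belong to gene families, and whether reads were split between related genes in these counts was not tested.

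The mucin itself and the small mucus proteins showed no difference that could be separated from the spread between mice. *Muc2* measured 93.9, 95.9, 164 and 22.0 CPM in WT and 43.7, 159.8, 63.2 and 87.8 CPM in KO mice, with its extremes at WT 4 and WT 3 inside 1 genotype (log2 difference -0.08, 95% interval -1.54 to 1.37, edgeR unadjusted p 0.897). *Zg16* (chr7:127050156-127087328) measured 1518, 1895, 1484 and 1907 CPM in WT and 1968, 2037, 1769 and 1099 CPM in KO mice (log2 difference 0.02, 95% interval -0.41 to 0.44, edgeR unadjusted p 0.938). *Tff3* (chr17:31125306-31129646) measured 545, 725, 598 and 762 CPM in WT and 793, 782, 691 and 491 CPM in KO mice (log2 difference 0.07, 95% interval -0.31 to 0.44, edgeR unadjusted p 0.697). In both *Zg16* and *Tff3* the lowest of the 8 mice was KO 4, and the KO and WT ranges overlapped. *Klk1* measured 1463, 1447, 1797 and 1703 CPM in WT and 2097, 1759.7, 1460.5 and 1362 CPM in KO mice, which overlapped (log2 difference 0.06, 95% interval -0.28 to 0.40, edgeR unadjusted p 0.71). *Spink4* had a log2 difference of 0.24, with an interval of -0.27 to 0.75. The summed level of the 10 secreted genes was 30991, 73262, 49455 and 51582 CPM in WT and 88576, 80776, 64639.8 and 59659.6 CPM in KO mice, so that WT 2 exceeded KO 3 and KO 4.

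**Figure D4:**
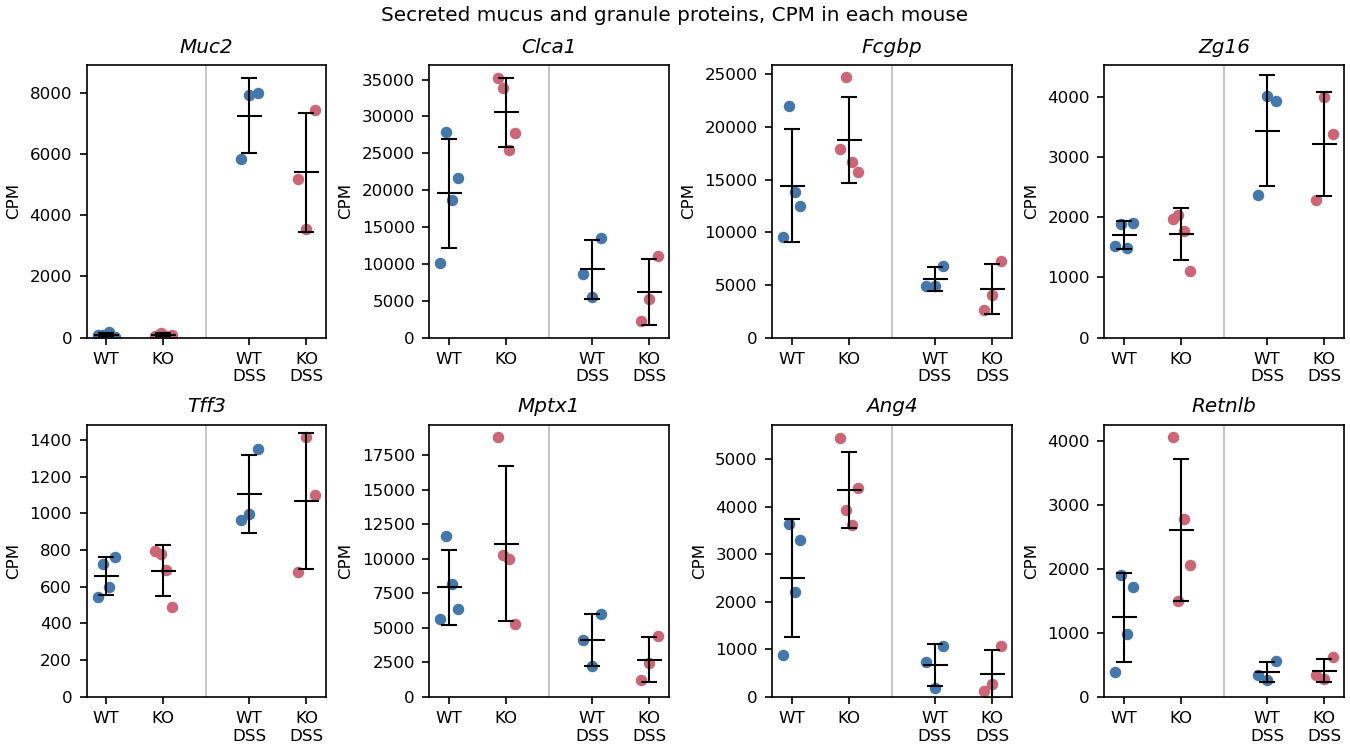
CPM of 8 secreted mucus and granule proteins (y axes) in each mouse by group, with points for mice, long bars for means and whiskers for the SD (4 mice a group without DSS, 3 after DSS). *Clca1* is 19572 ± 7424 CPM in WT and 30587 ± 4683 CPM in KO mice without DSS; the grey line separates the tables, whose scales are not shared.

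Of the 7 processing, granule and transport proteins, 5 had differences above 0 and 2 below (median 0.27), and 3 were higher at the unadjusted threshold. *Bcas1* (chr2:170346991-170427845) measured 148, 148, 149.96 and 150.4 CPM in WT 1 to WT 4 and 203, 214, 168 and 201 CPM in KO 1 to KO 4. Every KO mouse was above every WT mouse. The WT mice lay close together, with a coefficient of variation of 0.957%, against 9.97% in KO mice and 20.9% in WT mice after DSS. At 2484 to 2707 reads this is closer than counting error alone gives on average. The WT SD is therefore no measure of the spread between mice. The means were 149 ± 1.43 and 197 ± 19.6 CPM (SD, n = 4 each; log2 difference 0.40, 95% interval 0.20 to 0.61, edgeR unadjusted p 0.00131, adjusted p 0.819), and its unadjusted p stayed under 0.05 with any 1 mouse left out. Antisense transcripts overlap *Bcas1*, but held 2 to 57 reads in any mouse without DSS.

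*Best2* (chr8:85007202-85014531), a chloride and bicarbonate channel of colonic goblet cells, measured 45.5, 40.4, 45.8 and 69.9 CPM in WT and 102, 78.2, 49.9 and 71.0 CPM in KO mice. KO 1 was highest, and WT 4 lay among the KO values (log2 difference 0.58, 95% interval 0.05 to 1.10, edgeR unadjusted p 0.0354). The call ended without KO 1, KO 2, WT 1, WT 2 or WT 3 (unadjusted p 0.0688 to 0.0997), with no filter on low counts (p 0.0668) and with all 14 mice in a model (p 0.106). *Tpsg1* (chr17:25369273-25374442), a membrane-anchored tryptase that mast cells also make, measured 90.6, 127, 128 and 128 CPM in WT and 168, 156, 129 and 145 CPM in KO mice. The groups did not overlap, but 3 WT mice lay within 3 CPM of KO 3, and WT 1 was far below the others (log2 difference 0.34, 95% interval 0.05 to 0.62, edgeR unadjusted p 0.0248). The difference was 0.24 with an unadjusted p of 0.0527 without WT 1, and p was 0.0719 without KO 1 and 0.0522 without KO 2 and 0.0534 with epithelial scaling. *Cacna1h* overlaps *Tpsg1* on the opposite strand. It had 393 to 1171 reads without DSS, beside 1649 to 2564 for *Tpsg1*, and 177 to 322 after DSS. Whether the *Tpsg1* counts hold reads of *Cacna1h* was not tested. *Agr2* (chr12:35992907-36004087), the disulfide isomerase that mucin folding needs, measured 1508, 2326, 1761 and 2218 CPM in WT and 1945, 1387, 2105 and 1604 CPM in KO mice, which overlapped (log2 difference -0.15, 95% interval -0.54 to 0.25, edgeR unadjusted p 0.421). The solute carrier *Slc12a8* measured 202, 225, 228 and 192 CPM in WT and 229, 216, 197 and 184 CPM in KO mice, which overlapped (log2 difference -0.04, 95% interval -0.26 to 0.19, edgeR unadjusted p 0.736). *Sytl2*, an effector of granule exocytosis, and the calpain *Capn9* had log2 differences of 0.27 and 0.23.

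The 4 transcription factors were split, with 2 above 0 and 2 below (median 0.00), and none passed the unadjusted threshold. *Spdef* (chr17:27714352-27728955), the only member with the longer miR-29 seed match printed above, measured 178, 282, 302 and 179 CPM in WT and 257, 288, 217 and 144 CPM in KO mice (log2 difference -0.05, 95% interval -0.61 to 0.51, edgeR unadjusted p 0.833). Both genotypes covered nearly the same range, with WT 3 highest and KO 4 lowest. *Foxa3* measured 62.9, 99.8, 93.5 and 73.7 CPM in WT and 103, 113, 89.5 and 65.0 CPM in KO mice (log2 difference 0.17, 95% interval -0.26 to 0.60, edgeR unadjusted p 0.394). *Creb3l1* and *Creb3l4* are membrane-bound factors of the secretory pathway. *Creb3l1* measured 416, 470.2, 389 and 356 CPM in WT and 404, 408, 337 and 281 CPM in KO mice, which overlapped (log2 difference -0.19, 95% interval -0.50 to 0.12, edgeR unadjusted p 0.202), and *Creb3l4* had a log2 difference of 0.06.

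Among the O-glycosylation enzymes, 4 of 9 tested had a difference above 0 and 5 below (median -0.03), and 2 enzymes were lower at the unadjusted threshold. *B3gnt6* (chr7:98192417-98199481), which builds the core 3 glycan, measured 87.4, 39.6, 89.5 and 58.1 CPM in WT and 43.7, 49.5, 44.4 and 34.3 CPM in KO mice. WT 1 and WT 3 were high, while WT 2 lay inside the KO range. The means were 68.7 ± 24.1 and 43.0 ± 6.32 CPM (SD, n = 4 each; log2 difference -0.68, 95% interval -1.24 to -0.11, edgeR unadjusted p 0.0245), and the call ended without KO 4, WT 1 or WT 3 (unadjusted p 0.0605 to 0.0699) and with no filter on low counts (p 0.051).

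*Gcnt3* (chr9:70031496-70038088), which builds core 2 and core 4 branches, measured 283, 255, 309 and 298 CPM in WT and 205, 225, 267 and 232 CPM in KO mice. Only WT 2 was below the highest KO mouse, KO 3 (log2 difference -0.30, 95% interval -0.54 to -0.06, edgeR unadjusted p 0.0179). Its call ended without KO 1 or WT 3 (unadjusted p 0.05004 and 0.0551) and with epithelial scaling (p 0.0565). *Galnt3*, *Galnt4* and *Galnt12*, which attach the first sugar, had log2 differences of -0.11, -0.03 and 0.06. *C1galt1*, the core 1 enzyme, and its chaperone *C1galt1c1* had 0.02 and -0.04, and *B3gnt3* and *Gcnt1*, which extend and branch core 1, had 0.07 and 0.29. *Galnt4* lies within *Poc1b* on the same strand, whose own count was 348 to 757 reads over all 14 mice. *St6galnac1*, which caps the first sugar with sialic acid, was left out by the filter on low counts, with 2, 2, 1 and 5 reads in WT and 0, 3, 8 and 0 reads in KO mice (exact permutation p 0.83, two-sided).

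All 4 transmembrane mucins had differences above 0 (median 0.20), and none passed the unadjusted threshold. *Muc13*, the most abundant of them, was 1549 ± 229.9 CPM in WT and 1729 ± 187 CPM in KO mice (SD, n = 4 each; log2 difference 0.16, 95% interval -0.15 to 0.47, edgeR unadjusted p 0.279). *Muc1* measured 24.8, 13.8, 16.0 and 9.68 CPM in WT and 26.0, 23.3, 16.7 and 23.0 CPM in KO mice, which overlapped (log2 difference 0.47, 95% interval -0.12 to 1.06, edgeR unadjusted p 0.107). Without WT 1, the highest WT mouse, the difference was 0.77 with an edgeR unadjusted p of 0.00338. Leaving out that mouse widens the difference by construction, so this p is not support for one. *Muc4* and *Muc20*, which overlap on opposite strands, had 0.07 and 0.24, and *Muc20* averaged 2.61 CPM in WT mice. *Muc20* had 31 to 68 reads beside 3112 to 6383 for *Muc4*, and whether its counts hold reads of *Muc4* was not tested.

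Of 32 other goblet and mucus genes tested, 2 were higher (*Il13ra1* and *Il4ra*, receptor chains for the cytokines that drive mucus production) and 2 were lower (*Guca2a* and *Kif12*) at the unadjusted threshold, with a median of 0.05. Over all genes tested, 2.09% were higher and 1.58% lower at that threshold. *Il13ra1* was 105 ± 6.48 CPM in WT and 130.2 ± 24.4 CPM in KO mice (SD, n = 4 each), and *Il4ra* was 38.2 ± 3.48 CPM in WT and 46.3 ± 1.80 CPM in KO mice. Of 33 other mucin O-glycosylation genes tested, 0 were called by edgeR in either direction (0 after adjustment, median 0.03), and of 4 other mucins tested, *Muc3a* and *Muc6* were lower.

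Markers of other cells are given beside these values, with calls at an unadjusted p under 0.05, since no gene of these lists passed after adjustment (0 by edgeR). By edgeR 2.09% of all genes tested were higher and 1.58% lower at the unadjusted threshold. The 10 tuft cell genes summed to 87.0 to 164 CPM in WT and 157 to 255 CPM in KO mice, and 5 of the 9 tested were higher at that unadjusted threshold (*Dclk1*, *Trpm5*, *Avil*, *Ptgs1* and *Gfi1b*). The 12 enteroendocrine genes summed to 268 to 351 CPM in WT and 139 to 223 CPM in KO mice, with 4 of 12 lower (*Chgb*, *Chga*, *Gcg* and *Tph1*). The 8 Paneth cell genes summed to 42.6 to 1084 CPM in WT and 209 to 1315 CPM in KO mice, nearly all of it *Itln1* (35.01 to 1302 CPM over the 8 mice), which secretory cells other than Paneth cells also make, while the defining *Lyz1* and *Defa24* stayed at or below 42 reads. The 11 epithelial genes differed little in sum (11211 to 15158 against 11472 to 14775 CPM) and none was called. Of the other lists, *Selenbp1*, *Cyp2c55* and *Guca2a* of 12 absorptive colonocyte genes and *Smoc2* of 10 stem and cycling genes were lower, *Mmp7* of 4 Paneth cell genes and *Cd74* and *Igha* of 7 B and plasma cell genes tested were higher, and no T cell, myeloid, stromal or red blood cell gene was called. Mitochondrial reads made 6.38% to 13.9% of the WT and 5.71% to 12.3% of the KO libraries. The part of these in the members' differences was not tested.

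The second comparison asked the same question after 3 days of DSS. The KO mice had lower *Foxa3*, *Creb3l1*, *Slc12a8* and *Klk1* and higher *Muc1* at an unadjusted p under 0.05, and no member passed after adjustment. By edgeR, 4 of 34 members tested were lower and 1 was higher, against 3.25% and 3.98% of the 14908 genes tested, and 0 passed the adjusted threshold (0.0134% of the genes tested; DESeq2 also called 0 members). The lowest adjusted p of the members was 0.646. The median log2 difference was -0.17, beside -0.01 over all genes tested, with 24 members below 0 and 10 above. Of the 14908 genes tested, 7608 were below 0 and 7300 above. All KO mice lay below all WT mice for 3 members, *Foxa3*, *Creb3l1* and *Gcnt3* (6.29% of all genes), and above them for 0 (5.32% of all genes). With 3 mice against 3, the lowest exact permutation p for a single gene is 0.1.

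These counts depended on KO DSS 3, the KO mouse with the highest summed level of secreted products. Without it 12 members were lower and 2 higher, and the share of all genes called in that refit is not given here. The lower ones included *Muc2* (log2 difference -0.73, edgeR unadjusted p 0.0189), *Clca1* (-1.32, p 0.0372) and *Fcgbp* (-0.74, p 0.0206). *B3gnt6* (log2 difference -0.77, edgeR unadjusted p 0.0318) and *Gcnt3* (-0.27, p 0.0443) were lower too. KO DSS 3 was the highest KO mouse for each of these genes. Leaving it out lowers their difference by construction, so these p-values are not support for one. Without KO DSS 1, KO DSS 2 or WT DSS 3, 2 members were lower, and without KO DSS 2, WT DSS 1 or WT DSS 2, 0 were higher. Mitochondrial reads were 14.8%, 20.2% and 7.43% in KO DSS 1 to 3 and 6.15% to 8.81% in the WT DSS mice, so KO DSS 3 was also the KO mouse nearest the WT mice. *Reg3b*, an antimicrobial lectin of injured epithelium, ranged from 459 to 13676 CPM in the KO DSS mice and from 165 to 994 CPM in the WT DSS mice. The part of either in the members' values was not tested.

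Of the transcription factors all 4 had differences below 0 (median -0.36), and 2 were called. *Foxa3* (chr7:19013284-19023538) measured 56.9, 48.5 and 54.2 CPM in WT DSS 1 to 3 and 36.5, 36.3 and 42.8 CPM in KO DSS 1 to 3. Every KO mouse was below every WT mouse, and KO DSS 1 and 2 were nearly equal. The means were 53.2 ± 4.26 and 38.5 ± 3.66 CPM (SD, n = 3 each; log2 difference -0.46, 95% interval -0.71 to -0.22, edgeR unadjusted p 0.00203, adjusted p 0.646).

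*Creb3l1* (chr2:91982328-92024502) measured 214, 191 and 166 CPM in WT and 143, 112 and 152 CPM in KO mice, again without overlap (log2 difference -0.49, 95% interval -0.81 to -0.17, edgeR unadjusted p 0.00714). The unadjusted p of *Foxa3* and *Creb3l1* stayed under 0.05 with any 1 mouse left out. *Spdef* measured 117, 91.4 and 117 CPM in WT and 110.3, 95.1 and 76.9 CPM in KO mice, which overlapped (log2 difference -0.20, 95% interval -0.54 to 0.14, edgeR unadjusted p 0.211), and *Creb3l4* had a log2 difference of -0.25.

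Among the secreted proteins 9 of 10 had differences below 0 and 1 above (median -0.34), the opposite split to the mice without DSS, and 1 was called. *Klk1* (chr7:44225360-44229618) measured 1830.1, 1314 and 1519 CPM in WT and 947, 1027 and 1389 CPM in KO mice. KO DSS 3 lay above WT DSS 2, and the other KO mice lay below all WT mice (log2 difference -0.47, 95% interval -0.90 to -0.05, edgeR unadjusted p 0.0338, adjusted p 0.655). The call ended without KO DSS 1, KO DSS 2, WT DSS 1 or WT DSS 3 (unadjusted p 0.061 to 0.127).

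*Muc2*, at 66937 to 189668 reads in this table, measured 5842, 7929 and 7982 CPM in WT and 5182, 3545 and 7446 CPM in KO mice. KO DSS 2 was lowest, and KO DSS 3 lay among the WT values (log2 difference -0.43, 95% interval -1.05 to 0.20, edgeR unadjusted p 0.155). *Clca1* measured 8662, 5553 and 13512 CPM in WT and 2203, 5206 and 11092 CPM in KO mice, where the highest mouse was 2.43-fold the lowest in WT and 5.03-fold in KO mice (log2 difference -0.58, 95% interval -2.08 to 0.91, edgeR unadjusted p 0.378). *Fcgbp* measured 4915, 4875 and 6832 CPM in WT and 2642, 4009 and 7259 CPM in KO mice, with both the lowest and the highest value among the KO mice (log2 difference -0.26, 95% interval -1.07 to 0.56, edgeR unadjusted p 0.487).

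*Zg16* measured 2374, 4021 and 3927 CPM in WT and 2291, 3993 and 3386 CPM in KO mice (log2 difference -0.09, 95% interval -0.69 to 0.51, edgeR unadjusted p 0.731). *Tff3* measured 966, 999 and 1349 CPM in WT and 682, 1419.9 and 1102 CPM in KO mice (log2 difference -0.05, 95% interval -0.66 to 0.56, edgeR unadjusted p 0.858). The genotypes overlapped for both, and mice 1 of either genotype were the lowest. *Ang4* had 726, 189 and 1068 CPM in WT and 121, 279 and 1059 CPM in KO mice, *Mptx1* had 4116, 2204 and 5979 and 1226, 2414 and 4423 CPM, and *Retnlb* had 338, 259 and 564 and 334, 274 and 623 CPM. In all of these WT DSS 3 and KO DSS 3 were highest in their groups, and the genotypes overlapped. The 10 secreted genes summed to 30507, 27913 and 43552 CPM in WT and 16145, 22705 and 38575 CPM in KO mice, which overlapped.

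Of the processing and transport proteins 6 of 7 had differences below 0 (median -0.15). *Slc12a8* (chr16:33517328-33664135) measured 87.9, 98.2 and 105 CPM in WT and 69.5, 59.2 and 88.7 CPM in KO mice, where only KO DSS 3 reached the WT range (log2 difference -0.42, 95% interval -0.75 to -0.08, edgeR unadjusted p 0.0198). Its call ended without KO DSS 1, KO DSS 2 or WT DSS 3 (unadjusted p 0.0619 to 0.07). *Agr2* measured 1598, 1917 and 1756 CPM in WT and 1878, 1636 and 1536 CPM in KO mice (log2 difference -0.06, 95% interval -0.39 to 0.27, edgeR unadjusted p 0.682). *Bcas1*, the member with the lowest p without DSS, measured 86.1, 123 and 130.3 CPM in WT and 82.9, 92.0 and 139.6 CPM in KO mice (log2 difference -0.11, 95% interval -0.66 to 0.44, edgeR unadjusted p 0.653). *Agr2* and *Bcas1* overlapped between genotypes. *Best2* measured 54.0, 37.6 and 33.6 CPM in WT and 14.2, 32.8 and 44.5 CPM in KO mice (log2 difference -0.45, 95% interval -1.56 to 0.66, edgeR unadjusted p 0.353). *Tpsg1* measured 70.0, 60.7 and 87.8 CPM in WT and 56.7, 60.4 and 74.6 CPM in KO mice (log2 difference -0.19, 95% interval -0.54 to 0.16, edgeR unadjusted p 0.258). The genotypes overlapped for both, and KO DSS 1 was the lowest mouse. *Capn9* and *Sytl2* had log2 differences of -0.15 and 0.28, with intervals that included 0.

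Of the O-glycosylation enzymes 5 of 9 tested had differences above 0 and 4 below (median 0.07), and none was called. *Gcnt3* measured 178, 188 and 207 CPM in WT and 168, 148 and 177 CPM in KO mice. The groups did not overlap, but KO DSS 3 and WT DSS 1 were close (log2 difference -0.22, 95% interval -0.46 to 0.03, edgeR unadjusted p 0.0745). *B3gnt6* measured 23.9, 23.7 and 29.5 CPM in WT and 20.1, 10.2 and 24.0 CPM in KO mice (log2 difference -0.51, 95% interval -1.19 to 0.18, edgeR unadjusted p 0.124). The other 7 lay between -0.06 (*Galnt12*) and 0.11 (*Galnt3*). *St6galnac1* had 1, 0 and 0 reads in WT and 0, 1 and 1 reads in KO mice (exact permutation p 0.7, two-sided).

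Of the transmembrane mucins 3 of 4 had differences above 0 (median 0.26). *Muc1* (chr3:89229057-89233381) measured 12.4, 17.0 and 21.9 CPM in WT and 20.7, 25.7 and 28.5 CPM in KO mice. WT DSS 3 lay just above KO DSS 1, and the other mice were separated by genotype (log2 difference 0.55, 95% interval 0.06 to 1.03, edgeR unadjusted p 0.0314, adjusted p 0.655). The call ended without KO DSS 2, KO DSS 3, WT DSS 1 or WT DSS 2 (unadjusted p 0.0734 to 0.101) and with all 14 mice in a model (p 0.0703). *Muc13* was 2213 ± 276 CPM in WT and 2602 ± 281 CPM in KO mice (SD, n = 3 each; log2 difference 0.23, 95% interval -0.13 to 0.60, edgeR unadjusted p 0.183), and *Muc4* and *Muc20* had -0.21 and 0.29.

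**Figure D5:**
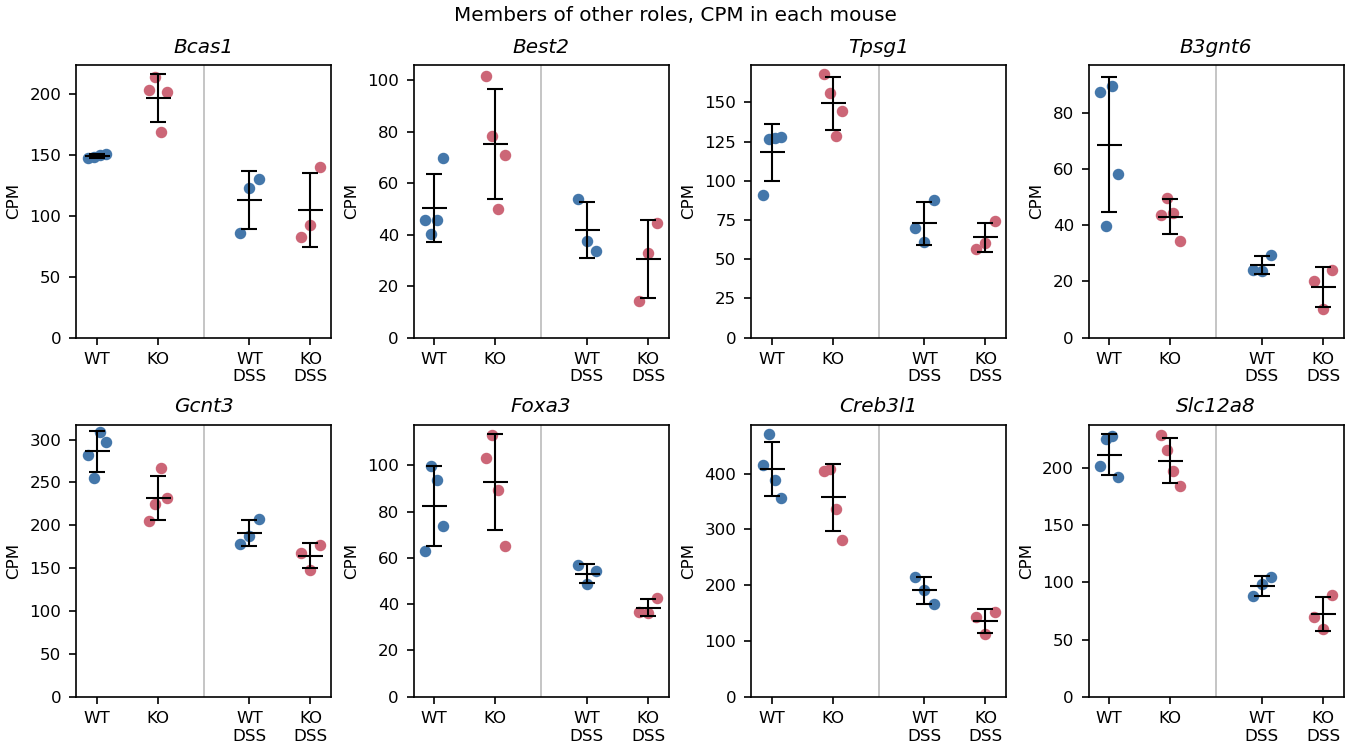
CPM of 8 members outside the secreted proteins (y axes) in each mouse by group, with points for mice, long bars for means and whiskers for the SD (4 mice a group without DSS, 3 after DSS). *Bcas1* separates the genotypes without DSS (149 ± 1.43 against 197 ± 19.6 CPM), with a WT SD below what counting error alone gives on average. *Foxa3* separates them after DSS (53.2 ± 4.26 against 38.5 ± 3.66 CPM). The grey line separates the tables, whose scales are not shared.

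In the wider mucus pathway after DSS, 1 of 31 other goblet and mucus genes tested was higher (*Mep1b*, a meprin that detaches mucus) and 5 were lower. These were *Txndc5*, an endoplasmic reticulum oxidoreductase (351 ± 14.7 CPM in WT and 271 ± 38.4 CPM in KO mice), *Ern2*, the stress sensor of goblet cells (71.8 ± 2.23 CPM in WT and 58.5 ± 2.32 CPM in KO mice), *Atoh1*, the factor that commits progenitors to secretory fates (67.2 ± 1.04 CPM in WT and 51.1 ± 8.68 CPM in KO mice), *Ramp1* and *Kif12*. Of 31 other mucin O-glycosylation genes tested, *Gcnt4* was higher and 6 were lower (*B4galnt2*, *Galnt10*, *Fut4*, *B4galt4*, *B4galnt3* and *St6galnac4*), and of 4 other mucins *Muc3* was lower. The medians were -0.09, -0.12 and -0.45 for these lists, and no gene of them passed the adjusted threshold (0 by edgeR after adjustment, with the unadjusted counts just given). Over all genes tested, 3.98% were higher and 3.25% lower at the unadjusted threshold.

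Markers of other cells after DSS, again called at an unadjusted p under 0.05 with 0 genes past edgeR's adjusted threshold, gave T cell sums of 43.4 to 85.5 CPM in WT and 62.5 to 150.02 CPM in KO mice, with all 10 genes above 0 and *Cd8b1* and *Cd5* called. The myeloid genes summed to 79.4 to 97.6 against 96.7 to 141 CPM, with *S100a8* and *Fcgr3* of 8 higher. The enteroendocrine genes summed to 252 to 295 against 179 to 239 CPM, with *Pyy*, *Chga* and *Scgn* of 12 lower, and the epithelial genes to 19277 to 21443 against 20168 to 23977 CPM with none of 11 called. The red blood cell genes summed to 2.01 to 8.39 against 7.74 to 55.6 CPM, with *Hba-a2* and *Alas2* higher. *Saa1* and *Mall* were higher and *Cyp2c55* lower among absorptive colonocyte genes, *Col3a1* was higher among stromal genes and *Ascl2* lower among stem and cycling genes, and no tuft, Paneth or B cell gene was called. By edgeR 3.98% of all genes tested were higher and 3.25% lower at the unadjusted threshold. The part of these other cells in the members' differences was not tested.

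Whether the genotype difference itself changed between the experiments was tested as an interaction over all 14 mice. Of 34 members 3 had a lower KO difference after DSS than without it at an unadjusted p under 0.05 and 0 a higher one, against 2.3% and 1.73% of the 16370 genes tested, and 0 passed after adjustment (0% of the genes tested; DESeq2 0 members). The values were -0.51 for *Bcas1* (95% interval -1.01 to -0.0038, edgeR unadjusted p 0.0485), -0.52 for *Tpsg1* (-0.99 to -0.05, p 0.0316) and -0.63 for *Foxa3* (-1.19 to -0.08, p 0.0285), all with an adjusted p of 0.987. *Clca1* had the value -1.22 (-2.63 to 0.19, p 0.0854), and passed the unadjusted threshold without KO DSS 3 (p 0.00476) or WT DSS 2 (p 0.0451). KO DSS 3 was its highest KO mouse after DSS and WT DSS 2 its lowest WT mouse. Leaving out either lowers the value by construction, so neither p is support for a change. With single mice left out, the *Bcas1* call held only when that mouse was KO 3, WT DSS 1 or KO DSS 3 (p otherwise 0.0594 to 0.141) and ended with epithelial scaling (p 0.0705). The *Tpsg1* call ended without KO 1, KO 2, WT 1, KO DSS 1, KO DSS 2 or WT DSS 3 (p 0.0535 to 0.115), and that of *Foxa3* without KO 1, KO 2, WT 4, KO DSS 1, KO DSS 2 or WT DSS 1 (p 0.0522 to 0.0613). All 10 secreted proteins and all 4 transcription factors had values below 0 (medians -0.58 and -0.30), as did 5 of 7 processing proteins, whereas 7 of 9 O-glycosylation enzymes had values above 0. Over all members 22 of 34 had values below 0, against 8229 of the 16370 genes tested. None of the secreted proteins was called, and they include *Muc2*, with its low counts in the first table. Most secreted genes were high or low in the same mice, so the counts by role are not independent. The median over members was -0.24, beside -0.00 over all genes tested. For the counts below, with 1 mouse left out, the shares of all genes called are not given here. The number of members called lower was 0 without KO 1, KO 2, KO DSS 1 or KO DSS 2, 1 without WT 1 or WT DSS 3, 2 without WT 3 or WT 4, 4 without KO 4, 5 without KO 3 or WT DSS 2, and 11 without KO DSS 3.

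Finally, the levels of the 2 experiments were set side by side within each genotype, on a scale common to all 14 mice, with DSS and experiment confounded. By edgeR at an adjusted p under 0.05, 6 members were higher and 10 lower in the DSS experiment in WT mice (20.2% and 18.1% of the 16370 genes tested), and 6 were higher and 20 lower in KO mice (23.2% and 22.7%). The median log2 differences of the members were -0.31 in WT and -0.93 in KO mice, beside -0.02 and -0.03 over all genes. Scaled to 11 epithelial genes in place of all genes, 1 member was higher and 28 lower in WT mice. In KO mice 1 was higher and 29 lower, so the split depended on the scaling. The member left higher was *Muc2* in both genotypes, whose values carry the low *Muc2* counts of the first table. The shares of all genes called under that scaling are not given here. The number lower in WT mice was 6 without WT DSS 2 and 7 without WT DSS 1. The numbers in KO mice were 4 higher without KO DSS 2, KO 1 or KO 3, and 14 lower without KO DSS 2.

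*Clca1* was lower in the DSS experiment in KO mice, at 27957 ± 4415 and 6962 ± 5111 CPM (SD, n = 4 and 3; log2 difference -2.01, edgeR adjusted p 0.00467) and was 17974 ± 7019 and 10409 ± 4512 CPM in WT mice (log2 difference -0.79, edgeR adjusted p 0.203), or -1.71 with an adjusted p of 0.00675 under epithelial scaling. The larger value in KO mice was not shown to differ from that in WT mice, as the interaction above gives. *Fcgbp* was lower in both (log2 -1.09 in WT and -1.71 in KO mice, edgeR adjusted p 0.0203 and 0.00107), though in WT mice the call ended without WT 2, WT DSS 1 or WT DSS 2 (adjusted p 0.0619 to 0.0759). *Spdef* was also lower (log2 -0.82 and -0.97, edgeR adjusted p 0.0195 and 0.00663), the former not past the threshold without WT DSS 2 or WT 3 (adjusted p 0.0559 to 0.0899). Of the 4 transcription factors 3 were lower in WT and 4 in KO mice.

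*Zg16* (1.31 in WT and 1.21 in KO mice, edgeR adjusted p 8.68e-04 and 0.00103), *Tff3* (1.04 and 0.93, 0.00299 and 0.00451) and *Muc13* (0.81 and 0.89, 9.24e-04 and 2.92e-04) were higher in the DSS experiment. Scaled to epithelial genes, *Zg16* kept its direction at 0.35 and 0.12 without a call, and *Tff3* was 0.09 in WT and -0.16 in KO mice, while *Muc13* turned to -0.15 and -0.19. *Agr2* was 0.14 and 0.24 under the common scale, without a call, and -0.80 and -0.84 under the epithelial one. *Muc2* had log2 values of 6.57 and 6.23, which carry the low *Muc2* counts of the first table described above.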

How the data were processed

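Total RNA was isolated with TRIzol, and the authors made directional libraries (NEBNext Ultra Directional kit); HISAT2 and DESeq2 are named in the submitters' processing notes, without versions. The genome build and the strand setting of the counting are not given in the sources used here; the coordinates deposited match GRCm38. The authors deposited raw counts per gene for each mouse, FPKM values (fragments scaled by gene length and library total) and gene lengths in bases. Their own group means, fold changes and p-values were not used, nor were 6 per-sample columns of FPKM after DSS. After DSS the columns name the genotype only, so those mice are numbered by column.

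Counts were analysed with edgeR 4.0.16 in R 4.3.3 (quasi-likelihood test, TMM scaling, filterByExpr at its defaults of 10 reads and 15 in total), fitted over all genes of each table and adjusted by Benjamini-Hochberg. The interaction and the DSS contrasts used 14 mice in 1 model. A member was called at p under 0.05. DESeq2 1.42.0, other scalings and filters, limma 3.58.1 on log2(FPKM + 1) and log2(FPKM + 0.1), a replicate block, single mice left out, and (chosen after the mitochondrial shares were seen) mitochondrial genes left out were alternatives. Levels per kilobase are CPM divided by the deposited gene length. The scripts were tested on simulated data. Mice were grouped by the genotype and treatment in the labels, and are replicates as labelled, and nothing says which shared a litter.

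Values in every mouse are given for *Muc2*, *Tff3*, *Clca1*, *Fcgbp*, *Zg16*, *Agr2*, *Spdef* and each member with an unadjusted p under 0.05 in a genotype comparison or in the interaction; of other lists, the genes called are named. Values given beyond this rule (*Retnlb*, *Ang4*, *Mptx1*, *St6galnac1*, the sums and the *Muc2* comparison between tables) were chosen after they were seen. The members and lists were chosen with earlier results of these data known. Intervals and read floors cover counting and replicate error only, and depth was 14231157 to 23153149 reads a mouse.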

Additional observations from a re-analysis of the deposited data

Results flagged for a closer look

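Of 70 member and group pairs examined for a mouse far from its group, 2 were found, where chance gives about 1 in 20 of the pairs that can be tested. *Tpsg1* in WT 1 was 90.6 CPM, below the other 3 WT mice at 127 to 128 CPM. *B3gnt3* in KO 2 was 331 CPM, above the other 3 KO mice at 293 to 299 CPM.

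The genotype difference after DSS was lower than that without DSS for *Bcas1* (-0.51), *Tpsg1* (-0.52) and *Foxa3* (-0.63) at an unadjusted p under 0.05 in edgeR's interaction test, with an adjusted p of 0.987 for each. *Bcas1* and *Tpsg1* were above 0 without DSS and below 0 after it, and *Foxa3* changed sign as well, from 0.17 to -0.46.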

How the results depend on the processing

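With 3 or 4 mice a group, single mice moved most counts. The shares of all genes called under the settings below, DESeq2 included, are not given here. Leaving out each mouse in turn gave 1 to 8 members higher and 0 to 2 lower without DSS, 0 to 2 higher and 2 to 12 lower after DSS, and 0 to 11 lower in the interaction. In WT mice 6 to 13 members were lower in the DSS experiment. The median ranged from 0.05 to 0.18 without DSS, from -0.30 to -0.05 after DSS and from -0.32 to -0.11 in the interaction. One model of all 14 mice gave 2 members higher without DSS and 0 higher after DSS. With no filter on low counts 1 member was lower without DSS and 2 were higher after DSS, and with epithelial scaling 1 was lower without DSS. DESeq2 called 1 member after adjustment without DSS and 5 lower at the unadjusted threshold in the interaction. Epithelial scaling left 1 member higher in WT and 1 in KO mice in the DSS experiment, *Muc2* in both. That scaling gave 28 lower in WT mice and medians of -1.28 and -1.996. With mitochondrial genes left out of the fit, 4 members were lower and 1 higher after DSS.

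Some values changed sign. Without DSS *Muc2* was 0.059 and 0.031 by limma on log2(FPKM + 0.1) and log2(FPKM + 1), and *Zg16* was -0.015 under both. Epithelial scaling turned *Agr2* to -0.80 in WT and -0.84 in KO mice and *Tff3* to -0.16 in KO mice, and *Muc13* to -0.15 and -0.19. With single mice left out, the ranges without DSS were -0.52 to 0.33 (*Muc2*), -0.0071 to 0.20 (*Tff3*), -0.070 to 0.18 (*Zg16*), -0.069 to 0.15 (*Klk1*), -0.089 to 0.016 (*Slc12a8*) and -0.18 to 0.11 (*Spdef*). After DSS they were -0.31 to 0.19 (*Tff3*), -0.74 to 0.025 (*Fcgbp*), -0.30 to 0.10 (*Zg16*), -0.15 to 0.00030 (*Agr2*), -0.37 to 0.035 (*Bcas1*), -0.35 to 0.46 (*Retnlb*) and -1.73 to 0.086 (*Ang4*). The cause was not tested. Replicate numbers without DSS were tried as a block. Same-numbered mice correlated at -0.22 to 0.15 in their deviations, and 0 of 4 WT mice were closest to their own number. With 4 mice a genotype this cannot show that the numbers carry no pairing, and they were used as names only in the main fit. With that block *Muc2* was 0.030 and *Zg16* -0.011, *Tpsg1* had a p of 0.0501 and *Muc1* one of 0.0438. No paired analysis was possible after DSS because the columns give only the group. In the comparison without DSS, 316 of the single-gene values kept direction and side of the threshold, 25 lost the call, 16 gained it and 21 changed sign. After DSS these counts were 242, 12, 5 and 14.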
